A study of Mus musculus with 1824 samples.

Results

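Primitive streak and nascent mesoderm cells were taken from embryonic day 7.5 (E7.5) chimaeric mouse embryos as cells with at least 100000 reads and at least 2 of the 3 genes *T*, *Mixl1* and *Mesp1* at 20 CPM or more, CPM being a gene's read count scaled to a total of 1000000 reads in the cell. The members were thus chosen by their own measured levels of these 3 genes. There were 330 of them among 1824 cells in all, and they made up 34.5% of the E7.5 cells of that depth (95% Clopper-Pearson interval 31.5 to 37.6, counting error only). Cells had been sorted into 96-well plates and sequenced by Smart-seq2, which reads whole transcripts and adds no molecular identifiers. Chimaeras were made by injecting mouse embryonic stem cells that lack *Tet1*, *Tet2* and *Tet3* (*Tet*-TKO) and carry an H2B-tdTomato reporter into C57BL/6J blastocysts, and the labels give the strain as CD1, the strain of the recipient mothers. The labels give single cells neither a genotype nor a sort gate, so every group below can mix knockout and host cells and no comparison of these was made. The study's methods describe staining for the surface proteins KDR and CD41 before sorting, so shares of cells describe the sorted wells and not the embryo. Animals are named only for 4 E7.5 embryos (embryos 1, 2, 4 and 5), with 1 plate each, and these 4 serve as replicates. The other 7 E7.5 plates carry no animal name and were used as technical units.

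The primitive streak is the furrow at the posterior side of the gastrulating mouse embryo through which epiblast cells leave the epithelium and become mesoderm or endoderm. Nodal, Wnt, BMP and FGF signals act there, and the T-box factors Brachyury (*T*) and Eomesodermin, the homeobox factor *Mixl1* and the bHLH factor *Mesp1* mark cells at and just after this step. Cells that leave the streak lose E-cadherin and other epithelial junction genes, shut down the pluripotency genes of the epiblast, and go on to paraxial, cardiac, extraembryonic or blood and vascular mesoderm.

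The members were found on 10 of the 11 E7.5 plates, at very different shares. Embryo 1 held 60 members among 92 cells (65.2%, interval 54.6 to 74.9) and embryo 2 held 56 of 94 (59.6%, 48.95 to 69.6). Embryo 4 held 18 of 91 (19.8%, 12.2 to 29.4) and embryo 5 held 24 of 88 (27.3%, 18.3 to 37.8). The intervals of embryos 1 and 2 lie above those of embryos 4 and 5. On the plates with no named animal the share ran from 0 of 93 cells on lane plate 1, where the interval reaches 3.89%, to 58 of 94 (61.7%) on chimera plate 3. Members had a median of 784221.5 reads per cell (103716 to 5706297) and the other cells a median of 720838.5 reads. At a common depth of 100000 reads the median member had 7200.5 detected genes, other cells 6931.5 and epiblast cells, defined below, 7398 (8851.5, 8318.5 and 9016 without thinning). These medians pool the plates. Within embryos, members and others had 7553.5 and 7695.5 at that depth in embryo 1 and 7699.5 and 7740.5 in embryo 2. The values were 7611.5 and 7604 in embryo 4 and 7420.5 and 7375 in embryo 5. On lane plate 1, with 0 members, the other cells had a median of 6266.

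**Figure D1:**
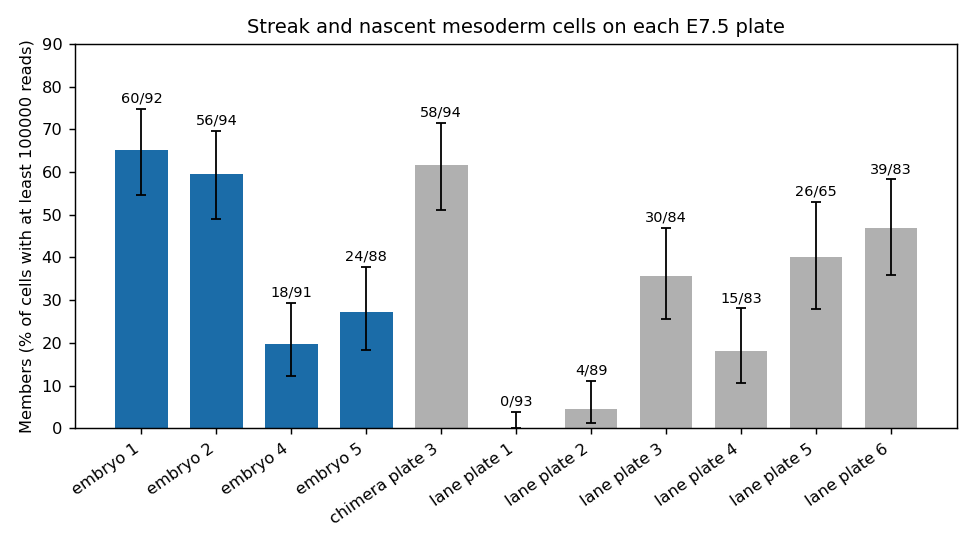
Share of cells that are members on each E7.5 plate, in percent of cells with at least 100000 reads (bars from 0, with 95% Clopper-Pearson intervals and the counts above them). Blue bars are the 4 named embryos and grey bars plates with no named animal. Embryos 1 and 2 and chimera plate 3 reach 59.6% to 65.2%, and lane plate 1 has 0 of 93.

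The 3 genes of the rule define the group and are given as a description. All 3 were at 20 CPM or more in 55.5% of members (interval 49.9 to 60.9), *T* and *Mixl1* alone in 86 members, *Mixl1* and *Mesp1* alone in 44, and *T* and *Mesp1* alone in 17. *Mixl1* (GRCm38 chr1:180693043-180697034) was the most frequent, at 20 CPM or more in 94.8% of members, with a median of 341.9 CPM and a highest value of 4949 CPM. *T* (chr17:8434423-8442496) reached that level in 86.7% with a median of 187.8 CPM, and *Mesp1* (chr7:79792241-79793788) in 73.9% with a median of 128.5 CPM. Few cells lay near the limit. The second highest of the 3 genes lay under 40 CPM in 36 members, and between 10 and 20 CPM in 29 cells outside the group. The 5 members closest to the limit had 20.3 to 21.6 CPM for that gene and the 5 closest cells outside had 18.1 to 19.9 CPM. Among the other cells, 24.9% had exactly 1 of the 3 genes at 20 CPM and 75.1% had none.

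*Eomes* and *Lefty2* were not used by the rule and check the name of the group. *Eomes* (chr9:118478212-118486132), a T-box factor needed for mesoderm and definitive endoderm, was at 20 CPM or more in 80.3% of members (interval 75.6 to 84.5) and in 35.3% of other cells (31.6 to 39.2). *Lefty2* (chr1:180893108-180899103), a secreted Nodal inhibitor of nascent mesoderm, reached that level in 89 of 330 members (26.97%) and 15 other cells (2.40%). In epiblast cells, defined below, the shares were 58.2% for *Eomes* and 7.09% for *Lefty2*. *Eomes* also stands in the list of extraembryonic ectoderm markers, so it is a weak check of the name. Lane plates 4 to 6 stood apart for *Eomes*, with 114.3, 118.9 and 116.2 CPM in their pooled members, against 159.97 to 315.5 CPM in the 4 embryos, chimera plate 3 and lane plate 3. *Lefty2* was at 0 in the 15 members of lane plate 4 and at 241.9 CPM in the 26 members of lane plate 5. A part of the *Lefty2* reads can also fit its neighbour and near copy *Lefty1*, since 7.21% of the 2399 windows of 75 bases, the read length, in its transcript also occur in that of *Lefty1*, while *Mesp1* and *Mesp2* share none.

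Among markers of other cell types, those of paraxial mesoderm and caudal epiblast were more frequent in members than in other cells. Those of extraembryonic ectoderm and visceral endoderm were less frequent. These are shares of cells pooled over all E7.5 plates, with no test. Plates enter members and others unequally, since lane plate 1 held 0 members among 93 cells and lane plate 2 held 4 among 89. At least 3 of 10 paraxial mesoderm markers (such as *Tbx6*, *Msgn1* and *Dll1*) were at 20 CPM or more in 88 members (26.7%) and 8 other cells (1.28%). The same share for caudal epiblast and neuromesodermal progenitors was 43.9% of members against 18.8% of others. Haematoendothelial markers went the other way over all plates, with 47 members (14.2%) and 37.9% of others. So did the erythroid list, with 8 members (2.42%) and 82 others (13.1%). In the 4 named embryos alone the haematoendothelial shares were close, at 12.03% of members and 11.6% of others. The erythroid shares there were 0 and 0.483%. Extraembryonic mesoderm and allantois markers were present in 32.4% of members and 28.1% of others, and cardiac and pharyngeal markers in 46 (13.9%) and 36 (5.75%). In the 4 named embryos alone the first of these shares were 36.1% and 39.6%, and the second 15.2% and 2.42%. Definitive endoderm and axial mesendoderm markers were found in 39 members (11.8%) and 53 others (8.47%), visceral endoderm markers in 4 (1.21%) and 31 (4.95%), extraembryonic ectoderm markers other than *Eomes* and *Cdx2* in 1 (0.303%) and 98 (15.7%), and surface and neural ectoderm markers in 0 and 14 (2.24%). In the 4 named embryos the definitive endoderm and axial mesendoderm shares were 13.9% of members and 14.5% of others. The paraxial, caudal epiblast, visceral endoderm and extraembryonic ectoderm lists kept their direction there. Epiblast markers remained common, with at least 3 of 10 in 79.1% of members and 48.6% of others over all plates. In the 4 named embryos alone these shares were 86.7% and 86.5%. Of the other cells there, 65 met the epiblast rule given below and 42.03% held at least 3 extraembryonic ectoderm markers. Having 3 of these 10 markers is thus not particular to epiblast cells.

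The promoter of *Mesp1*, the gene that divides the members below, was the only one of the 3 promoters searched that held any of the motifs. In the RefSeq promoter table (GRCm38.p6, 250 bases before to 50 after the start), *T*, *Mesp1* and *Eomes* were listed. The letters searched, on both strands, were the T-box motif TCACACC, the FOXH1 motif AATCCACA, the SMAD motif CAGACA and the TCF/LEF motif ATCAAAG, which do not overlap one another in the matches. Both matches are shown because T-box factors and Wnt effectors act in the streak, 5′ to 3′ on the strand of *Mesp1*, with the matched letters in capitals:
*Mesp1* T-box, chr7:79793567-79793596, minus strand: aggggcccgctTCACACCtagggctcagga
*Mesp1* TCF/LEF, chr7:79793603-79793632, minus strand: gctcgagccggCTTTGATatgctgatgaat

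The T-box letters begin at base 6 of the RefSeq transcript and the TCF/LEF letters, which read ATCAAAG on the other strand, begin at base -31 relative to its start. In the GENCODE M21 annotation, whose *Mesp1* transcript starts further upstream, both windows lie in its exon and UTR. TCACACC occurs in 3.98% of all 32851 promoters of this length, ATCAAAG in 3.73%, CAGACA in 21.04% and AATCCACA in 0.855%. None of the 4 motifs occurred in the windows of *T* and *Eomes*, which says only that these letters are not there.

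To find which genes set the members apart from everything else on the same plates, reads were summed per embryo over the members and the other cells of the 4 named embryos and compared within each embryo. Genes that go together with *T*, *Mixl1* or *Mesp1* in a cell are favoured by the way the members were chosen. A gene was called at a false discovery rate under 1% and an absolute log2 fold change of at least 1, the limits in the study's methods. On all reads, the analysis chosen as the main one, edgeR called 0 of 16916 genes higher (0.0%) and 1 lower (0.00591%), with 1137 higher and 1273 lower at an unadjusted p under 0.05, while DESeq2 on the same sums called 1.94% higher and 2.37% lower. With every cell thinned to 100000 reads before summing, called equal depth here, 14 of 12078 genes were called higher (0.116%) and 7 lower (0.058%), and DESeq2 on all reads called all 21 of them. Folds below are from equal depth, and a gene is said to rise or fall where it was called there. Equal depth was chosen for display after the calls under all settings were known, so its calls are the more lenient edgeR reading of these data, and the adjusted p on all reads is given beside the genes described in full. At equal depth 2 genes were called without embryo 1, 2 without embryo 2, 0 without embryo 4 and 6 without embryo 5.

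The genes called higher included *Evx1*, *Wnt3* and *Wnt5a*, and those called lower included *Cldn3*, *Cldn4* and *Cldn7*. The homeobox factor *Evx1*, a marker of the posterior streak, was at 47.8, 48.9, 28.1 and 53.3 CPM in the members of embryos 1, 2, 4 and 5 and at 6.83, 4.19, 2.79 and 4.60 CPM in their other cells. The groups did not overlap, and the gene rose (log2 fold change 3.34 ± 0.24 (SE), edgeR adjusted p = 0.00399 at equal depth and 0.0238 on all reads). *Wnt3*, the ligand that starts streak formation, was at 94.8, 123.4, 87.6 and 78.4 CPM in members and 22.1, 19.1, 6.62 and 10.9 CPM in others. It rose without overlap (log2 fold change 2.999 ± 0.28 (SE), edgeR adjusted p = 0.00889 at equal depth and 0.0406 on all reads). *Wnt5a*, a ligand needed for posterior growth, was at 135.1, 156.5, 98.9 and 107.1 CPM and 25.2, 28.8, 12.1 and 16.2 CPM, and rose too (log2 fold change 2.67 ± 0.19 (SE), edgeR adjusted p = 0.00399 at equal depth and 0.0148 on all reads). All 5 other plates that hold at least 5 cells of both groups showed the same direction for these 3 genes.

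Further genes rose at equal depth. Fibronectin (*Fn1*), the matrix protein on which mesoderm migrates, was at 990.4, 1344.1, 1421.8 and 872.2 CPM in members and 239.4, 224.8, 167.9 and 223.9 CPM in others. The lowest member value lay well above the highest of the others (log2 fold change 2.31 ± 0.14 (SE), edgeR adjusted p = 0.00253 at equal depth and 0.0404 on all reads). *Dll3*, a Notch ligand of the presomitic mesoderm, was at 78.5, 104.1, 130.7 and 77.9 CPM against 8.23, 13.2, 9.68 and 5.11 CPM (log2 fold change 3.52 ± 0.22 (SE), edgeR adjusted p = 0.00276 at equal depth and 0.0181 on all reads). *Ifitm1*, an interferon-induced transmembrane gene of early mesoderm, was at 636.7, 611.3, 437.3 and 368.7 CPM against 87.3, 46.4, 40.1 and 45.8 CPM (log2 fold change 3.32 ± 0.15 (SE), edgeR adjusted p = 0.000552 at equal depth and 0.0133 on all reads), again without overlap, and 4 of 5 other plates had the same direction. The log2 fold changes were 3.28 ± 0.27 for the G protein subunit *Gna14*, 3.18 ± 0.27 for the Ras exchange factor *Rasgrp3* and 2.87 ± 0.20 for *Klhl6*. On the other plates *Gna14* and *Klhl6* were higher in members on 5 of 5 and *Rasgrp3* on 4 of 5.

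*Cldn4* (chr5:134945119-134946934), a tight junction claudin, was the only gene called on all reads, and it was not called on all reads when any 1 of the 4 embryos was left out or with the rule at 10 CPM or 40 CPM, where edgeR called 0 genes. It was at 0.0649, 0.0747, 1.62 and 0.996 CPM in members and 10.3, 15.4, 190.9 and 165.3 CPM in other cells (log2 fold change -7.26 ± 0.21 (SE), edgeR adjusted p = 0.00169 on all reads and 0.00043 at equal depth). Members lay near 0 in every embryo, and the other cells of embryos 4 and 5 were far higher than those of embryos 1 and 2. *Cldn3* was at 0, 0, 0.721 and 0.498 CPM in members and 5.86, 4.98, 66.5 and 67.4 CPM in others and fell as well. *Cldn7* was at 16.2, 24.99, 23.8 and 23.6 CPM against 86.7, 109.4, 144.1 and 166.1 CPM (log2 fold change -2.34 ± 0.19 (SE), edgeR adjusted p = 0.00626 at equal depth and 0.0181 on all reads). The glucose transporter *Slc2a1* fell by 1.06 on the log2 scale, from 1087.8, 1272.3, 1152.3 and 1394.8 CPM in others to 500.9, 567.1, 581.3 and 644.6 CPM in members. *Tpd52*, *Bex1* and *Ahnak* fell too (log2 fold changes -1.83 ± 0.17, -1.73 ± 0.14 and -1.501 ± 0.14), each lower in members on 5 of 5 other plates, as was *Slc2a1*, while the 3 claudins were lower on 4 of 5.

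The other cells are a mixture that differs between the embryos. Summed over 8 extraembryonic ectoderm markers, they ranged from 8.15 to 1814 CPM over the 4 embryos, against 17.9 to 80.6 CPM in members, and at least 3 of these markers were present in 87 other cells (42.03%) and 1 member of these embryos, with none of the 8 at 0 in either group. Visceral endoderm markers summed to 44.4 to 5960 CPM in the others and 3.90 to 216.4 CPM in members, and erythroid markers to 1.49 to 26.4 CPM and 0.901 to 3.75 CPM. The part of these cells in the claudin values and in the counts of calls was not tested.

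By gene list, positive medians went with few calls. All 15 tested streak factors had a positive fold, with a median log2 fold change of 2.57 beside a median near 0 over all genes, and only *Evx1* and *Wnt3* were called. In the Wnt list the median was 1.97 and 2 of 17 were called, *Wnt3* and *Wnt5a*. Among 15 mesenchymal and migration genes *Fn1* alone was called (median 1.19), and among 14 epithelial genes *Cldn7* alone, although all 14 had a negative fold (median -1.53). The lists of the Nodal (16 genes, median 0.26), FGF (18, 0.45) and BMP (15, 0.41) pathways, primed pluripotency (11, -0.88), later mesoderm (14, 1.34), first Hox and Cdx genes (6, 1.96) and DNA methylation and demethylation enzymes (9, -0.13) held no call in either direction. *Eomes* was at 271.996, 306.9, 261.6 and 257.4 CPM in members and 64.4, 83.2, 140.5 and 114.8 CPM in others, and *Lefty2* at 73.5, 64.9, 153.1 and 96.003 CPM and 4.35, 2.75, 2.42 and 0.421 CPM. Both lay higher in 4 of 4 embryos without overlap and missed the limit (log2 fold change 1.498 ± 0.26 (SE), edgeR adjusted p = 0.0421 at equal depth and 0.0958 on all reads for *Eomes*, and log2 fold change 5.62 ± 0.73 (SE), edgeR adjusted p = 0.017 at equal depth and 0.0569 on all reads for *Lefty2*).

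Epiblast cells are the cells from which streak cells arise, and a comparison with them asks what differs at that step. They were defined as E7.5 cells outside the group with *Pou5f1* at 50 CPM or more and *Utf1* or *Fgf5* at 20 CPM or more. They were 14.7% of the E7.5 cells, and 62 of them lay in embryos 1, 2 and 4 (24, 31 and 7 cells), and embryo 5, with 3, was left out of the fit. Genes that go together with *Pou5f1*, *Utf1* or *Fgf5* in a cell are favoured to be higher in the epiblast cells by this definition, as those that go with *T*, *Mixl1* or *Mesp1* are in members. On all reads edgeR called 0 of 15922 genes in either direction (0.0%), with 1185 higher and 1110 lower in members at an unadjusted p under 0.05, and DESeq2 called 2.47% higher and 2.27% lower. At equal depth 140 of 10993 genes were called higher (1.27%) and 1.11% lower, and DESeq2 on all reads called 95.04% of these genes. The calls rest on 3 embryos. At equal depth edgeR called 1.15% of genes without embryo 1, 1.54% without embryo 2 and 5.51% without embryo 4, all 3 in fits of 2 embryos, and on all reads 1, 0 and 0 genes. Of the genes called with all 3 embryos, these fits at equal depth called 42.7%, 60.5% and 98.9%. The pooled epiblast cells of embryo 4 stood apart for mesoderm genes, with 150.9 CPM of *Kdr* and 684.2 CPM of *Fn1*, against 0.520 and 0.954 CPM and 81.4 and 42.6 CPM in those of embryos 1 and 2. Over all E7.5 plates only 3 epiblast cells had *Kdr* at 20 CPM or more. At most 3 of the 7 cells of embryo 4 thus reached that level, and its *Kdr* value does not describe all 7.

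Streak factors rose, with 10 of 15 called higher and none lower (median log2 fold change 3.25, beside 0.01 over all genes). *Eomes* was at 271.996, 306.9 and 261.6 CPM in the members of embryos 1, 2 and 4 and at 71.2, 79.4 and 131.98 CPM in their epiblast cells. It rose by a log2 fold change of 1.77 ± 0.16 (SE), edgeR adjusted p = 0.000143 at equal depth and 0.0622 on all reads, and all 4 other plates with both groups showed the same direction. *Wnt3* was at 94.8, 123.4 and 87.6 CPM against 9.18, 12.2 and 15.4 CPM (log2 fold change 3.25 ± 0.26 (SE), edgeR adjusted p = 6.71e-05 at equal depth and 0.0376 on all reads). The LIM homeobox factor *Lhx1* was at 178.1, 398.6 and 423.5 CPM against 24.2, 8.78 and 94.9 CPM (log2 fold change 3.55 ± 0.43 (SE), edgeR adjusted p = 0.000775 at equal depth and 0.135 on all reads). No embryo's epiblast value reached a member value for these 3 genes. *Snai1*, the repressor of E-cadherin, rose from 4.04, 6.25 and 17.7 CPM to 81.5, 109.3 and 57.7 CPM (log2 fold change 3.27 ± 0.37). *Tbx3* (3.25 ± 0.34), *Evx1* (3.39 ± 0.48), *Sp5* (4.03 ± 0.50) and *Fgf8* (2.20 ± 0.32) were called as well, together with *Cdx2* and *Msgn1*. *Msgn1*, a factor of presomitic mesoderm, was at 12.6, 38.2 and 28.1 CPM in members and had 0 reads in the epiblast cells of all 3 embryos.

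Some Wnt and BMP genes rose beside them. In the Wnt list 7 of 17 were called higher (median 2.44), all but *Wnt3* and *Wnt5b* being regulators or targets. These were the Wnt targets *Axin2* (2.44 ± 0.36), *Nkd1* (2.72 ± 0.38) and *Sp5*, the inhibitor *Dkk1* (4.10 ± 0.57) and the agonist *Rspo3*. *Bmp4*, the ligand that induces posterior mesoderm, was at 60.7, 53.01 and 60.4 CPM in members and 2.83, 0.789 and 0 CPM in epiblast cells. The groups did not overlap (log2 fold change 5.47 ± 0.58 (SE), edgeR adjusted p = 0.000395 at equal depth and 0.0601 on all reads). *Bmp7* (3.56 ± 0.50), the BMP targets *Msx1* (2.70 ± 0.29) and *Msx2* (2.48 ± 0.40) and the decoy receptor *Bambi* (1.74 ± 0.28) made up the other calls among 16 BMP genes (median 1.28). Among 15 Nodal genes *Lefty2* (3.69 ± 0.30) and the co-receptor *Tdgf1* (1.71 ± 0.14) rose (median 0.82). *Nodal* itself was at 20.2, 30.7 and 34.7 CPM in members and 34.6, 47.8 and 41.04 CPM in epiblast cells, lower in members in 3 of 3 embryos, and was not called (edgeR adjusted p = 0.612 at equal depth). In the FGF list *Fgf8* and the inhibitor *Spred1* (1.57 ± 0.27) were called among 15 genes (median 0.28).

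**Figure D2:**
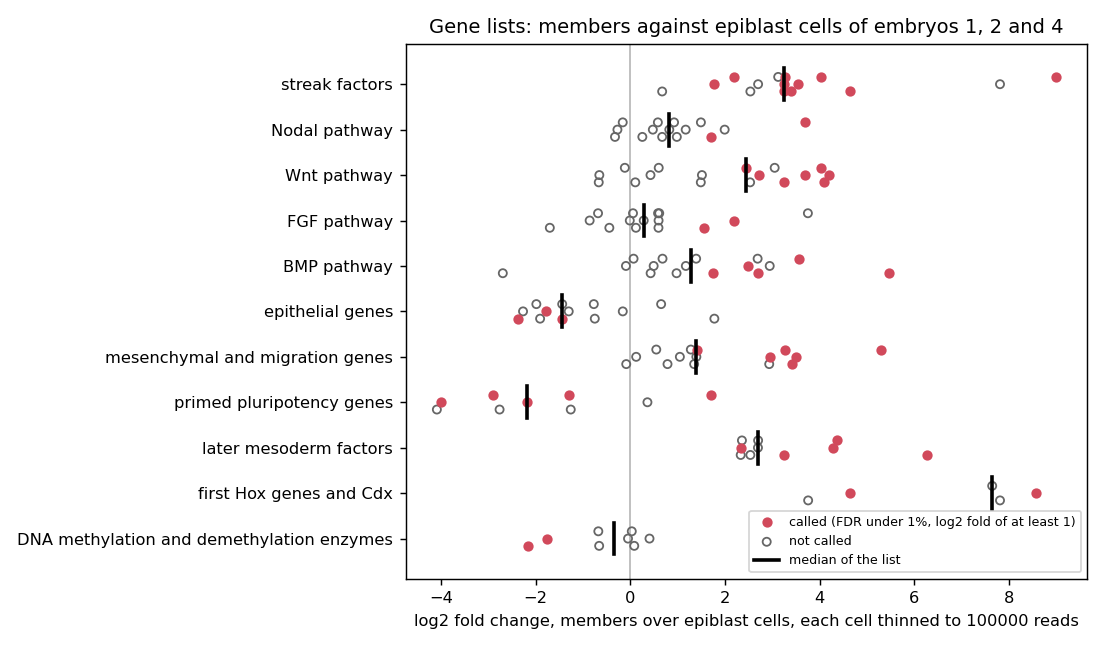
Log2 fold change of members over epiblast cells at equal depth, 1 point per gene, for each gene list. Filled points were called (false discovery rate under 1%, absolute log2 fold change of at least 1), open points were not, and black bars are list medians. Streak factors (median 3.25) and later mesoderm factors (median 2.70) lie right of 0, and primed pluripotency genes (median -2.19) and epithelial genes (median -1.44) mostly left of it.

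Some mesenchymal adhesion genes rose and some epithelial ones fell. N-cadherin (*Cdh2*) was at 194.7, 332.4 and 309.2 CPM in members against 44.2, 19.4 and 65.99 CPM in epiblast cells (log2 fold change 2.96 ± 0.34 (SE), edgeR adjusted p = 0.000577 at equal depth and 0.0793 on all reads). Cadherin 11 (*Cdh11*), a mesenchymal cadherin, rose from 1.15, 7.99 and 14.7 CPM to 169.2, 195.3 and 170.9 CPM (log2 fold change 5.29 ± 0.28 (SE), edgeR adjusted p = 1.32e-05 at equal depth and 0.0719 on all reads). Epiblast and member values did not overlap for either cadherin. The matrix protein *Fn1* (3.41 ± 0.48), the transcription factor *Zeb2* (3.51 ± 0.63) and the intermediate filament *Vim* (1.40 ± 0.23) rose as well, which with *Snai1* makes 6 of 15 mesenchymal genes (median 1.40). E-cadherin (*Cdh1*) fell from 318.1, 534.3 and 296.4 CPM in epiblast cells to 87.5, 108.3 and 172.5 CPM in members (log2 fold change -1.78 ± 0.23 (SE), edgeR adjusted p = 0.00114 at equal depth and 0.11 on all reads). *Epcam*, an epithelial adhesion molecule, was at 637.8, 625.1 and 374.7 CPM in epiblast cells and 196.3, 178.8 and 231.4 CPM in members (log2 fold change -1.44 ± 0.18 (SE), edgeR adjusted p = 0.000775 at equal depth and 0.0928 on all reads), and the trafficking gene *Rab25* also fell (-2.37 ± 0.35), so 3 of 13 epithelial genes fell (median -1.44).

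Some pluripotency genes fell, as did *Dnmt3a* and *Dnmt3b*. *Slc7a3*, an amino acid transporter of pluripotent cells, was at 57.1, 21.1 and 15.8 CPM in members and 539.8, 651.1 and 303.4 CPM in epiblast cells (log2 fold change -3.99 ± 0.29 (SE), edgeR adjusted p = 4.78e-05 at equal depth and 0.0376 on all reads). The kinase gene *Pim2* (-2.91 ± 0.22), *L1td1* (-2.19 ± 0.15) and the homeobox factor *Otx2* (-1.29 ± 0.12) fell too, and *Tdgf1*, which stands in this list as well, rose, giving 4 lower and 1 higher of 9 primed pluripotency genes (median -2.19). *Nanog* overlapped, at 71.2, 51.3 and 57.7 CPM in members and 40.5, 60.5 and 47.1 CPM in epiblast cells. The de novo DNA methyltransferase *Dnmt3b* (chr2:153649450-153687730) was at 659.8, 719.03 and 706.7 CPM in members and 2301.1, 3350.2 and 3832.1 CPM in epiblast cells (log2 fold change -2.16 ± 0.12 (SE), edgeR adjusted p = 1.32e-05 at equal depth and 0.0376 on all reads). *Dnmt3a* was at 133.6, 112.9 and 114.4 CPM against 336.8, 451.2 and 414.8 CPM (log2 fold change -1.76 ± 0.13 (SE), edgeR adjusted p = 5.46e-05 at equal depth and 0.0376 on all reads). Both fell without overlap. *Tet1*, the demethylation enzyme, was at 112.5, 103.3 and 142.1 CPM and 166.2, 148.7 and 217.3 CPM (edgeR adjusted p = 0.019 at equal depth) and was not called. Knockout and host cells are mixed here by an unknown share, which the *Tet1* level does not give.

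Later mesoderm factors were called higher in 5 of 10 cases and lower in none (median 2.70), namely *Hand1*, *Kdr*, *Pdgfra*, *Gata4* and *Foxf1*. *Hand1*, a bHLH factor of extraembryonic and cardiac mesoderm, was at 58.6, 76.6 and 99.2 CPM in members and 0.346, 0.757 and 8.86 CPM in epiblast cells (log2 fold change 6.27 ± 0.56 (SE), edgeR adjusted p = 0.000126 at equal depth and 0.0776 on all reads). *Kdr*, the VEGF receptor that marks mesoderm with vascular potential, was at 190.8, 243.3 and 346.5 CPM against 0.52, 0.954 and 150.9 CPM, with embryo 4 the highest in both groups (log2 fold change 4.37 ± 0.80 (SE), edgeR adjusted p = 0.00813 at equal depth and 0.256 on all reads). Of 5 tested first Hox and Cdx genes *Cdx2* and *Cdx4* were called higher. Outside the lists, the genes called with the largest folds included *Wnt2*, the imprinted *Peg10*, *Gna14*, *Morc4* and *Tmem119* among those that rose, and *Enpp3* (-3.86 ± 0.31), the sterol transporter *Abcg1* (-3.75 ± 0.29), *Slc27a2*, *Syt11*, *Slc35d3*, *Calcr*, *Ugt8a*, *Prrg4* and *Myb* among those that fell. These were named only if they had 1 direction in every embryo. On the other plates with both groups *Calcr* was lower in members on 2 of 4, *Enpp3*, *Ugt8a* and *Prrg4* were lower on 3 of 4, and the other 10 had the direction of their call on 4 of 4.

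**Figure D3:**
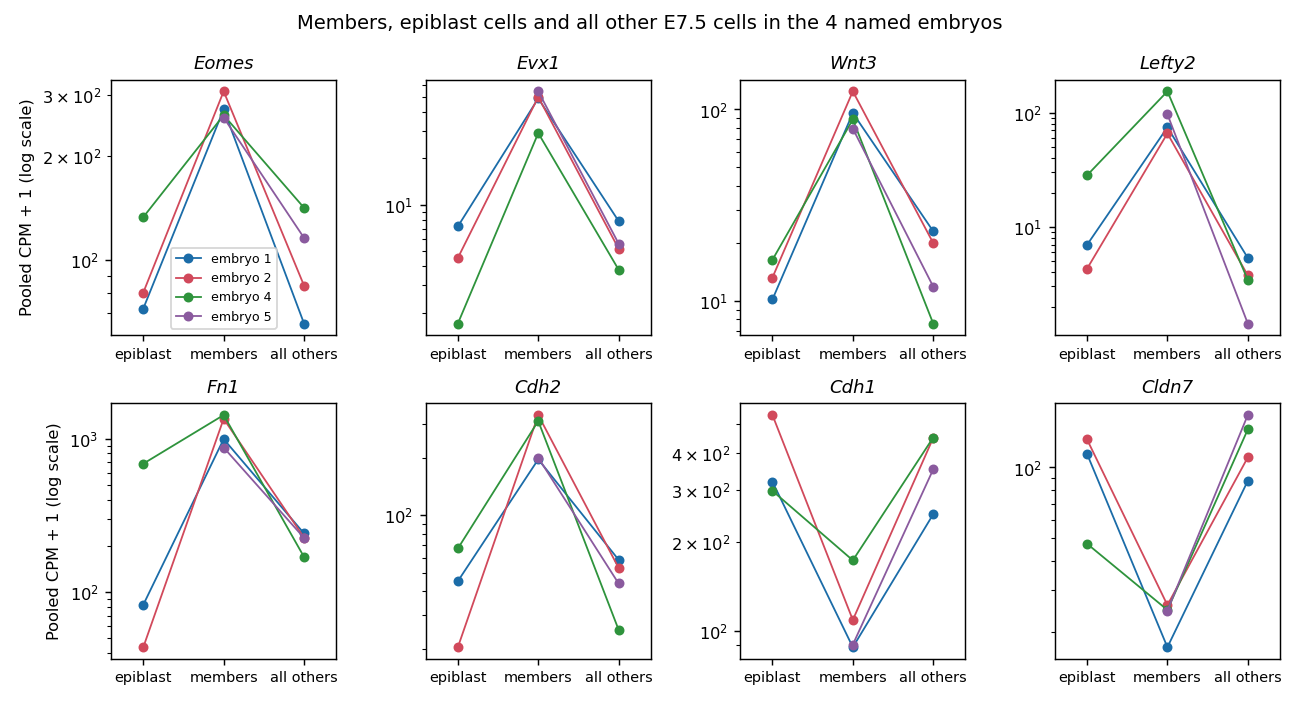
Pooled level of 8 genes in epiblast cells, members and all other E7.5 cells (which include the epiblast cells) of embryos 1, 2, 4 and 5, 1 point per embryo, as CPM + 1 on a log scale. Lines join groups of 1 embryo and embryo 5 has too few epiblast cells for a point. *Eomes*, *Evx1*, *Wnt3*, *Lefty2*, *Fn1* and *Cdh2* are highest in members in every embryo, and *Cdh1* and *Cldn7* are lowest there.

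Members were not uniform. With 50 CPM as the limit for each gene, 46 had high *Mesp1* only, 84 high *Pou5f1* only, 52.4% both and 27 neither. *Kdr* at 20 CPM or more was found in 41 of the 46 *Mesp1*-high members (89.1%), 58.96% of those with both and 9 of the 84 *Pou5f1*-high members (10.7%). *Cdh1* at that level went the other way, in 4.35%, 35.3% and 83.3% of these classes. *T* was at 20 CPM or more in 21 of 46 *Mesp1*-high and 83 of 84 *Pou5f1*-high members, and *Eomes* in 40 and 69. These shares pool plates, and the plates contribute unequally. Lane plate 3, with 17 of the 46 *Mesp1*-high and 1 of the 84 *Pou5f1*-high members, had pooled *Pou5f1* of 37.2 CPM, against 196.6 to 607.1 CPM on the other plates with at least 5 members.

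Across single members, *Pou5f1* ran with *T* and against *Kdr*. Spearman's rho between *T* and *Pou5f1* was 0.62 over 330 cells and 0.39 to 0.74 on the 7 plates with at least 20 members. Between *Kdr* and *Pou5f1* it was -0.58 over all members and -0.69 to -0.23 on these plates. *Mesp1* and *Pou5f1* had a rho of 0.02 over all members, with plate values from -0.37 to 0.45. *Fgf8* and *Pou5f1* had 0.39 over all members and positive values on all 7 plates. *Lefty2* and *Mesp1* (0.27) and *T* and *Msgn1* (0.34) were weak and positive on all 7. The cells of a plate share library preparation and differ in depth, and these values describe the members only, since the rule fixed what combinations of *T*, *Mixl1* and *Mesp1* could occur.

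**Figure D4:**
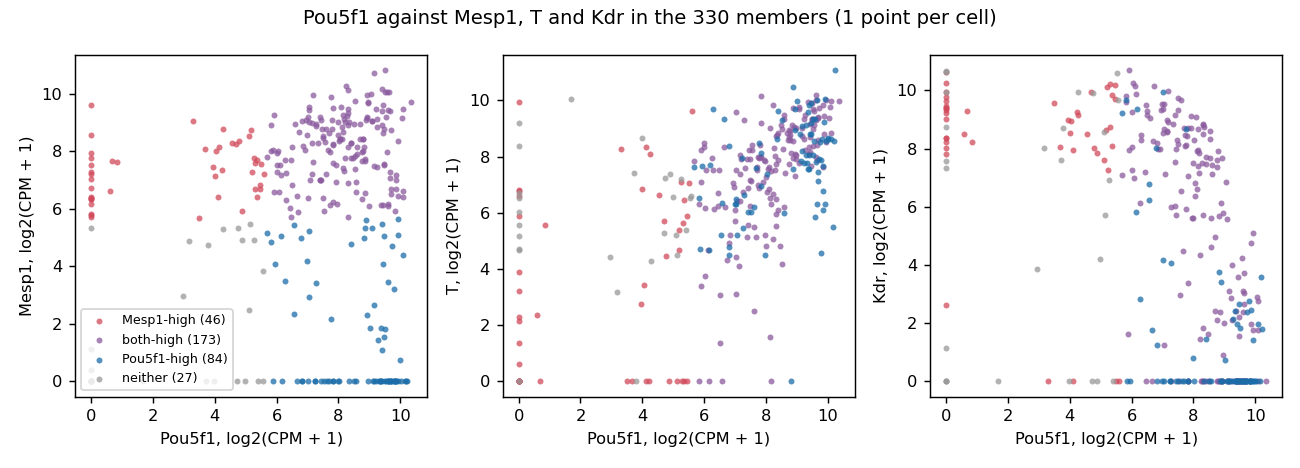
Level of *Mesp1*, *T* and *Kdr* against *Pou5f1* in the 330 members, 1 point per cell, as log2(CPM + 1). Colours give the 4 classes set at 50 CPM of *Mesp1* and *Pou5f1*, with their cell numbers. *T* runs with *Pou5f1* (rho 0.62), *Kdr* runs against it (rho -0.58), and *Mesp1* shows no trend (rho 0.02).

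For a test over embryos the 50 CPM classes were too small, since only embryo 1 held at least 5 cells of both. The members were therefore split by which of *Mesp1* and *Pou5f1* had the higher CPM, giving 59 cells with more *Mesp1* and 97 with more *Pou5f1* in the 4 embryos (22 and 38 in embryo 1, 26 and 30 in embryo 2, 5 and 11 in embryo 4, 6 and 18 in embryo 5). On all reads edgeR called 1 of 13721 genes higher with more *Mesp1* (0.00729%) and 2 lower (0.0146%), and DESeq2 73 higher (0.532%) and 1.38% lower. At equal depth 20 of 10192 genes were higher (0.196%) and 31 lower (0.304%), and DESeq2 shared 44 of these 51. Without embryo 1, 2, 4 or 5 the equal depth count was 24, 27, 31 and 58, of which 23, 23, 25 and 39 were among the 51. *T*, *Mixl1*, *Mesp1* and *Pou5f1* were not tested, and genes that go together with *Mesp1* or *Pou5f1* in a cell are favoured by the split.

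The 3 genes called on all reads were *Kdr*, *Cldn6* and *Dnmt3b*. *Kdr* (chr5:75932827-75978458) was at 334.7, 377.7, 657.2 and 575.5 CPM in the cells with more *Mesp1* of embryos 1, 2, 4 and 5 and at 101.7, 122.2, 187.3 and 136.6 CPM in those with more *Pou5f1*. Every value of the first exceeded every value of the second (log2 fold change 1.85 ± 0.11 (SE), edgeR adjusted p = 0.00383 on all reads and 1.65e-05 at equal depth). KDR was one of the stained surface proteins and the gates of single cells are not in the labels, and their part in the *Kdr* values was not tested. *Cldn6* (chr17:23679249-23682446), a claudin of epiblast and early epithelia, was at 0.113, 3.47, 1.27 and 0.604 CPM against 139.7, 441.5, 291.8 and 121.8 CPM (log2 fold change -7.67 ± 0.41 (SE), edgeR adjusted p = 0.00383 on all reads and 7.94e-07 at equal depth). It was close to 0 in the cells with more *Mesp1* of all 4 embryos. *Dnmt3b* was at 261.7, 339.1, 341.2 and 295.2 CPM against 906.4, 1061.2, 913.2 and 1066.9 CPM (log2 fold change -1.63 ± 0.08 (SE), edgeR adjusted p = 0.00383 on all reads and 7.94e-07 at equal depth), again without overlap. The 3 other plates with at least 5 cells of each kind had the same direction for all 3 genes. The calls did not hold without single embryos. *Cldn6* alone of the 3 was called without embryo 1, and none of the 3 without embryo 2, 4 or 5. *Kdr* was also lost when the deepest 2% of cells were left out.

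At equal depth, 6 of 12 epithelial genes fell with more *Mesp1* and none rose, and all 12 had a negative fold (median -2.29). *Cdh1* was at 4.92, 8.75, 10.4 and 15.4 CPM with more *Mesp1* and 138.6, 197.95, 246.4 and 117.3 CPM with more *Pou5f1*. Its groups were far apart (log2 fold change -3.75 ± 0.33 (SE), edgeR adjusted p = 5.41e-05 at equal depth and 0.0188 on all reads). *Epcam* was at 52.1, 59.2, 37.9 and 70.9 CPM against 285.6, 286.5, 326.9 and 272.1 CPM (log2 fold change -2.28 ± 0.27 (SE), edgeR adjusted p = 0.0006 at equal depth and 0.0188 on all reads), and *Cldn7* at 0.226, 1.22, 0.255 and 0 CPM against 26.1, 46.4, 33.5 and 32.6 CPM. On the 3 other plates with at least 5 cells of each kind, *Cldn7* was lower with more *Mesp1* on 2 and *Cdh1* on 3. *Cldn6*, the splicing factor *Esrp1* (-3.05 ± 0.52) and the polarity gene *Crb3* were the other epithelial calls. In the mesenchymal list *Fn1* alone rose, at 1349.4, 1741.7, 2279.5 and 1407.6 CPM with more *Mesp1* and 768.1, 985.96, 1005.7 and 669.2 CPM with more *Pou5f1* (log2 fold change 1.06 ± 0.10 (SE), edgeR adjusted p = 8.58e-05 at equal depth and 0.0139 on all reads), while *Cdh2* overlapped, at 253.4, 369.6, 375.6 and 189.2 CPM and 158.3, 298.8, 283.9 and 202.2 CPM. *Snai1* was at 101.9, 165.9, 72.8 and 132.5 CPM and 68.9, 58.4, 51.2 and 41.999 CPM and was not called.

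**Figure D5:**
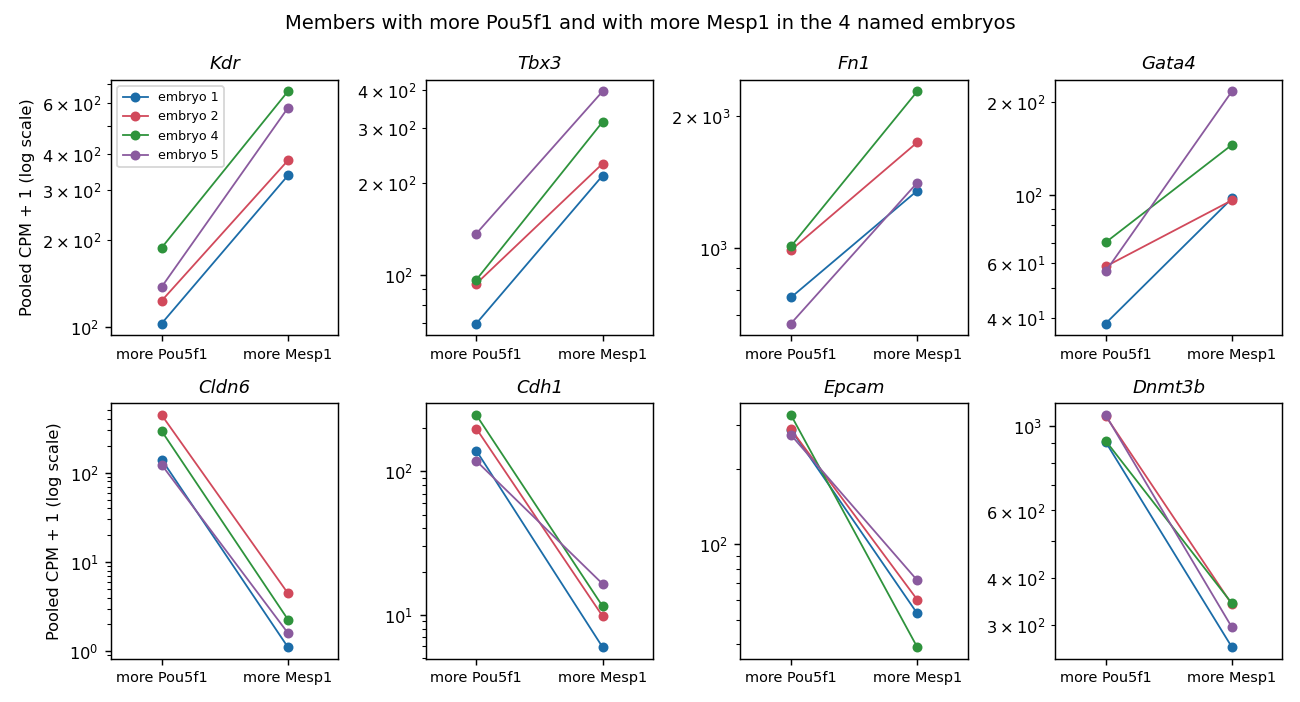
Pooled level of 8 genes in members with more *Pou5f1* and members with more *Mesp1* of embryos 1, 2, 4 and 5, as CPM + 1 on a log scale, 1 point per embryo with lines joining the groups of 1 embryo. *Kdr*, *Tbx3*, *Fn1* and *Gata4* are higher with more *Mesp1* in 4 of 4 embryos, and *Cldn6*, *Cdh1*, *Epcam* and *Dnmt3b* are lower in 4 of 4.

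Some pluripotency genes fell in the same cells, with *Nanog*, *Fgf5* and *Pim2* called lower among 9, all negative (median -2.22). *Nanog* was at 27.05, 20.9, 11.2 and 11.2 CPM with more *Mesp1* and 98.5, 78.7, 88.4 and 111.7 CPM with more *Pou5f1*. The values did not overlap (log2 fold change -2.22 ± 0.25 (SE), edgeR adjusted p = 0.000423 at equal depth and 0.0652 on all reads). *Fgf5*, a growth factor of the primed epiblast, was at 29.3, 47.03, 49.1 and 7.85 CPM and 137.3, 220.5, 193.5 and 107.9 CPM (log2 fold change -2.41 ± 0.21 (SE), edgeR adjusted p = 3.85e-05 at equal depth and 0.0524 on all reads), and its FGF relatives gave no further call among 15 genes (median -0.65). *Dnmt3b* was the one call among 8 methylation and demethylation enzymes (median -0.41). *Tet1* was at 73.2, 101.7, 143.9 and 67.6 CPM and 136.9, 104.8, 144.5 and 102.8 CPM and was not called.

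Mesoderm factors were less clearly separated. *Kdr* and the GATA factor *Gata4* were called higher among 10 later mesoderm genes (median 1.10), with *Gata4* at 96.3, 95.003, 144.1 and 215.2 CPM against 37.3, 57.6, 69.1 and 55.5 CPM (log2 fold change 1.44 ± 0.22 (SE), edgeR adjusted p = 0.0037 at equal depth and 0.14 on all reads). *Hand1*, at 91.8, 119.2, 94.98 and 309.3 CPM and 38.1, 38.3, 103.9 and 88.2 CPM, overlapped and was not called. Of 16 streak factors only *Tbx3* was called (median 0.32), at 209.6, 229.3, 313.7 and 394.5 CPM against 68.7, 92.9, 95.7 and 135.5 CPM. Its groups did not overlap (log2 fold change 1.51 ± 0.16 (SE), edgeR adjusted p = 0.000279 at equal depth and 0.0108 on all reads). *Eomes* lay at 277.6, 300.9, 412.8 and 262.6 CPM and 268.5, 312.3, 173.8 and 255.4 CPM and *Lefty2* at 118.8, 58.7, 150.2 and 54.3 CPM and 45.5, 70.5, 163.2 and 111.8 CPM, both with overlap. The lists of the Wnt (17 genes, median 0.24) and BMP (15, 0.59) pathways and of first Hox and Cdx genes (6, -0.36) held no call. Among the largest called folds outside the lists were the VEGF and semaphorin co-receptor *Nrp1* (1.77 ± 0.25), the proprotein convertase *Pcsk5* (2.15 ± 0.25), the adhesion molecule *L1cam* (1.82 ± 0.27), *Zcchc12* (2.55 ± 0.32), *Klhl6*, *Rasgrp3*, *Fbln2* and the long noncoding RNA *Hand2os1*. None of these was called on all reads (edgeR adjusted p 0.0435 to 0.246). On the 3 other plates *Zcchc12*, *Pcsk5*, *Klhl6* and *Fbln2* were higher with more *Mesp1* on 2, and the rest of these genes on 3.

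The largest falls with more *Mesp1* included markers of definitive endoderm and axial mesendoderm. *Foxa2*, a forkhead factor of both, had 0 reads in the cells with more *Mesp1* of all 4 embryos and was at 13.7, 48.4, 36.9 and 11.7 CPM with more *Pou5f1*. The Nodal and BMP inhibitor *Cer1* was at 0, 5.44, 21.1 and 0 CPM and 200.9, 575.9, 321.6 and 0.458 CPM, so embryo 5 had almost none in either group, and *Trh* was at 9.79, 5.05, 0 and 0 CPM and 55.8, 392.2, 222.4 and 336.8 CPM. *Foxa2*, *Cer1* and *Trh* were called at equal depth and not on all reads (edgeR adjusted p on all reads 0.117, 0.128 and 0.188). On the 3 other plates with at least 5 cells of each kind, *Foxa2* was lower with more *Mesp1* on 2, and *Cer1* and *Trh* on 3. Over all 10 markers of that list the summed level was 12.7 to 54.7 CPM in the 4 embryos with more *Mesp1* and 352.4 to 1257 CPM with more *Pou5f1*, and at least 3 markers were present in 0 of 59 and 21 of 97 cells (21.6%). *Foxa2*, *Foxa1* and *Noto* were at 0 in the first group and none was at 0 in the second. *Trh* is part of this sum and is not particular to these cell types. Over all E7.5 plates it was at 20 CPM or more in 60.3% of epiblast cells, against 14.9% for *Foxa2* and 8.51% for *Cer1*. *Gsc*, of the same list, reached that level in 24 of the 46 *Mesp1*-high members. Visceral endoderm markers summed to at most 17.6 CPM with more *Mesp1* and 132.7 CPM with more *Pou5f1*. The part of the 21 cells with at least 3 definitive endoderm and axial mesendoderm markers in the falls was not tested. Also lower were the transporter *Slc1a3*, the endocytic receptor *Lrp2* and the adaptor *Grb7*, with the same direction on 3, 2 and 3 of the 3 other plates. Toward the other side, cardiac and pharyngeal markers were present in 18 of 59 cells with more *Mesp1* (30.5%) and 6 of 97 with more *Pou5f1* (6.19%), and extraembryonic mesoderm and allantois markers in 35 (59.3%) and 21 (21.6%).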

How the data were processed

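Single cells were profiled by Smart-seq2 with 75-base reads. The deposited values are unnormalised counts, 1 row per gene and 1 column per cell. Per the submitters' processing notes and the study's methods, reads were aligned to GRCm38 with HISAT2 2.1.0 and counted with featureCounts on an Ensembl annotation. Strand and multi-mapping settings are not given in the sources used here, so values of near copies, and of genes that overlap on either strand, are uncertain. There were 55487 genes, 55141 with a symbol (0.0120% of reads lay on genes without one), and 0 columns were left without a sample. No 2 non-empty columns were identical. E7.5 wells held 0 to 6162793 reads, and 100 wells under 100000 reads were left out. Intervals cover counting error only, since reads carry no molecular identifiers.

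CPM was computed over all reads of a cell, and pooled CPM over the summed reads of a class. Counts were summed per embryo and class (at least 5 cells, at least 3 embryos) and tested with edgeR 4.0.16 (glmQLFTest, TMM, filterByExpr, Benjamini-Hochberg over all genes tested) in R 4.3.3, with embryo as a block because both classes come from the same animal. The labels name the embryos and the study's methods describe pooling chimaeras for dissociation. DESeq2 1.42.0 and cells thinned to 100000 reads were alternatives. SE is the fold divided by the root of the F statistic. The fit was also run on simulated sums with the same dispersion for every gene and the same change in every embryo. It called 88 of 97, 81 of 95 and 94 of 99 genes with a log2 change of 2 in the 3 comparisons. Of unchanged genes it called 1 of 16427, 2 of 15378 and 2 of 13329. The real sums need not share this spread, so the simulation does not show how many true changes the fits found.

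The members, gene lists and tests were chosen with earlier results of these data known. The 50 CPM classes of *Mesp1* and *Pou5f1* could not be tested over embryos, a case for which the design set values with no test. The split by the higher gene was tested in their place, and it is not the comparison named in the design. Genes named were those of the lists, those of the rules, and per comparison up to 10 called genes per direction with the largest folds, at least 20 pooled CPM in the higher class and 1 direction in every embryo, leaving out Gm and Rik symbols, applied to both edgeR fits. No doublet caller was run. The study's methods give limits of 10% mitochondrial and 20% ribosomal reads, and 0 and 4 members exceeded them. 1 gene selected by the rule for named genes is not reported here.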

Additional observations from a re-analysis of the deposited data

Results flagged for a closer look

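In the members of embryo 1, *Cldn7* stood apart from the other 3 embryos, at 16.2 CPM against 23.6 to 24.99 CPM. *Nkd1* did too, at 34.2 CPM in embryo 1 against 53.4 to 54.4 CPM. A sample this far from 3 others is expected in about 1 of 20 measures, and 2 of 61 measures examined over the 4 embryos met the limit.

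The E8.5 cells were not used in the comparisons. With at least 100000 reads, 12 E8.5 cells passed the rule for *T*, *Mixl1* and *Mesp1* (1.73% of E8.5 cells of that depth, interval 0.898 to 3.01), 9 of them on plate 8, 2 on plate 7 and 1 on plate 2. In these 12 cells *Eomes*, *Lefty2* and *Sox2* had 0 reads. *Cdx2*, a caudal homeobox factor, was at 20 CPM or more in all 12, *Msgn1* in 8, *Cdx4* in 7 and *Hoxb9* in 7, while the E7.5 members reached that level for *Cdx2* in 39.1%, and for *Msgn1* in 57, *Cdx4* in 32 and *Hoxb9* in 13 of 330. E8.5 counts as 1 sample here, and the difference was not tested.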

How the results depend on the processing

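Members were 19.1% of cells when all 3 rule genes were required. The share of tested genes that was called depended on the processing, and the cause was not tested. Members against all other cells, 0.00591% on all reads, gave 4.32% with DESeq2, 0.0651% with no filter, 0.296% with no replicate block (pairing by embryo dropped), 0.0517% with other plates as 1 block, 0.899% with plates as further blocks, 0.174% with thinned cells and 0 with the rule at 10 CPM or 40 CPM. Members against epiblast cells, 0 on all reads, gave 4.74, 0.238, 0.0879, 0.665, 2.00 and 2.38% under the first 6 of these settings, and the split by *Mesp1* and *Pou5f1*, 0.0219%, gave 1.91, 0.0822, 0.0583, 0.0408, 0.128 and 0.500%. Leaving out 1 embryo gave 0, 0 to 0.00639% and 0 to 0.00787% on all reads, and at equal depth 0 to 0.0491%, 1.15 to 5.51% and 0.250 to 0.549%.

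Chosen after seeing the data were 42 settings of filter and dispersion and 14 fits at equal depth without an embryo or the block. Members against other cells gave 0.0547, 0.0547, 0.0741, 0.0847, 0.118 and 0.303% called on all reads with filters at 5, 10 and 20 CPM, each plain and robust, and 0.207, 0.192, 0.228, 0.222, 0.286, 0.304 and 0.595% at equal depth, the first with a robust default filter. Against epiblast cells these were 0, 0, 0.428, 0.471, 1.11 and 1.64% on all reads and 2.67, 2.37, 2.69, 2.89, 3.29, 3.95 and 3.88% at equal depth. For the split they were 0.0939, 0.0939, 0.208, 0.186, 0.396 and 0.396%, and 0.481, 0.554, 0.526, 0.710, 0.699, 0.992 and 0.979%. With no replicate block at equal depth they were 0.621, 2.42 and 0.383%. Of 1521 values of the genes named under the planned settings, 1.64% fell below and 20.8% rose past the limit. None changed direction, and many of these genes were chosen for 1 direction in every embryo of the same fits. Not run were the stricter epiblast rule (2 embryos left) and the 20 CPM classes (1 embryo).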
